A study of Mus musculus with 8 samples.

Results

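The proteasome genes were taken as all protein-coding genes of the RefSeq table for mouse build mm10 (GRCm38.p6) whose symbol begins with Psma, Psmb, Psmc, Psmd, Psme, Psmf or Psmg and a number, which gave 51 genes of the 21775 used. Smad4 binding at them was read from chromatin immunoprecipitation and sequencing (ChIP-seq) of activated CD4+ T cells of C57BL/6 mice, taken from the spleen together with lymph nodes. All groups had been cultured with IL6 plus a TGFbR inhibitor, which blocks the receptor of TGF-β, and were sampled 12 h after treatment. The wild-type (WT) group had 2 samples, both from females. The knockout (KO) group, CD4cre;Smad4fl/fl, in which a Cre driven by Cd4 sequences removes Smad4 in T cells, had 2 samples, KO replicate 1 from pooled males and females and KO replicate 2 from males. Sex and genotype can therefore not be told apart in these lists, and the labels give no ages. The 4 input samples were not analysed here.

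The proteasome is the protease complex that degrades proteins tagged with ubiquitin. Its core particle, a barrel of stacked α and β rings, holds the active sites in 3 β subunits, and its regulatory particle, of ATPase and non-ATPase subunits, binds, deubiquitinates and unfolds the substrate. In lymphocytes and under interferon, the alternative β subunits Psmb8, Psmb9 and Psmb10 take the places of the 3 standard catalytic subunits and form the immunoproteasome, which shapes the peptides shown on MHC class I molecules. Mammalian proteasome genes are known to be raised together by the transcription factor encoded by Nfe2l1 when proteasome activity falls short.

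Each library was deposited as a list of peak positions without height or score, so binding is described here by presence and by width in base pairs (bp). The smallest width was 240 bp in WT replicate 1 and 242 bp in WT replicate 2, so peaks given below at these widths stand at the floor of their list. A WT-only region is a stretch where peaks of both WT lists meet by at least 1 bp and no peak of either KO list is met. The WT lists held 27120 and 19792 peaks in replicates 1 and 2, and the KO lists 564 and 424; read depth is unknown, and its part in this gap was not tested. Loss of Smad4 itself cannot be read from peak positions. As a check of the labelled cell type, WT-only regions were counted at marker genes. Of all coding genes, 29.4% held one within 1 kb of a gene end and 44.3% in the gene or within 10 kb. All 7 T cell marker genes (Cd3e, Cd3d, Cd3g, Cd28, Lck, Bcl11b and Tcf7) held one at a gene end. Cd4 held none at an end, where only WT replicate 1 had a peak, and 2 in the gene or within 10 kb. None of the 5 myeloid and neither of the 2 CD8 markers held a WT-only region in the gene or within 10 kb. Cd8b1 had 1 peak at an end in WT replicate 1 and 1 peak within 10 kb in KO replicate 1. Of 5 B cell markers Cd79a and Pax5 held a WT-only region in the gene or within 10 kb. That of Cd79a at an end had peaks of 1118 bp in WT replicate 1 and 1622 bp in WT replicate 2. Lists this short do not settle the cell type. Binding at a marker is not expression.

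Smad4 peaks lay at the starts of most proteasome genes in both WT libraries and at none in the KO libraries. Within 1 kb of either end of the gene, 34 of the 51 genes had a peak in WT replicate 1, where 36.7% of all coding genes did, and 32 had one in WT replicate 2, where 32.7% of all coding genes did. No proteasome gene had an end peak in KO replicate 1 or KO replicate 2, a state close to the background, since only 0.409% and 0.175% of all coding genes had one. The mean was 33 ± 1.41 genes in WT and 0 ± 0 in KO (SD, n = 2 each); the groups did not overlap, and p was 0.333 by a two-sided exact permutation test, which cannot go lower with 2 samples a group. Peaks covered 22687 and 19040 bp of these end windows in WT replicates 1 and 2 and none in KO, a mean of 20864 ± 2579 bp against 0 (SD, n = 2 each; exact permutation p = 0.333). These p-values are the smallest the design allows and do not measure the size of the spread between samples. The KO replicates differed in the sex of their animals. Separate animals or cultures are not stated for the WT replicates, so the spread between those may be technical.

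**Figure D1:**
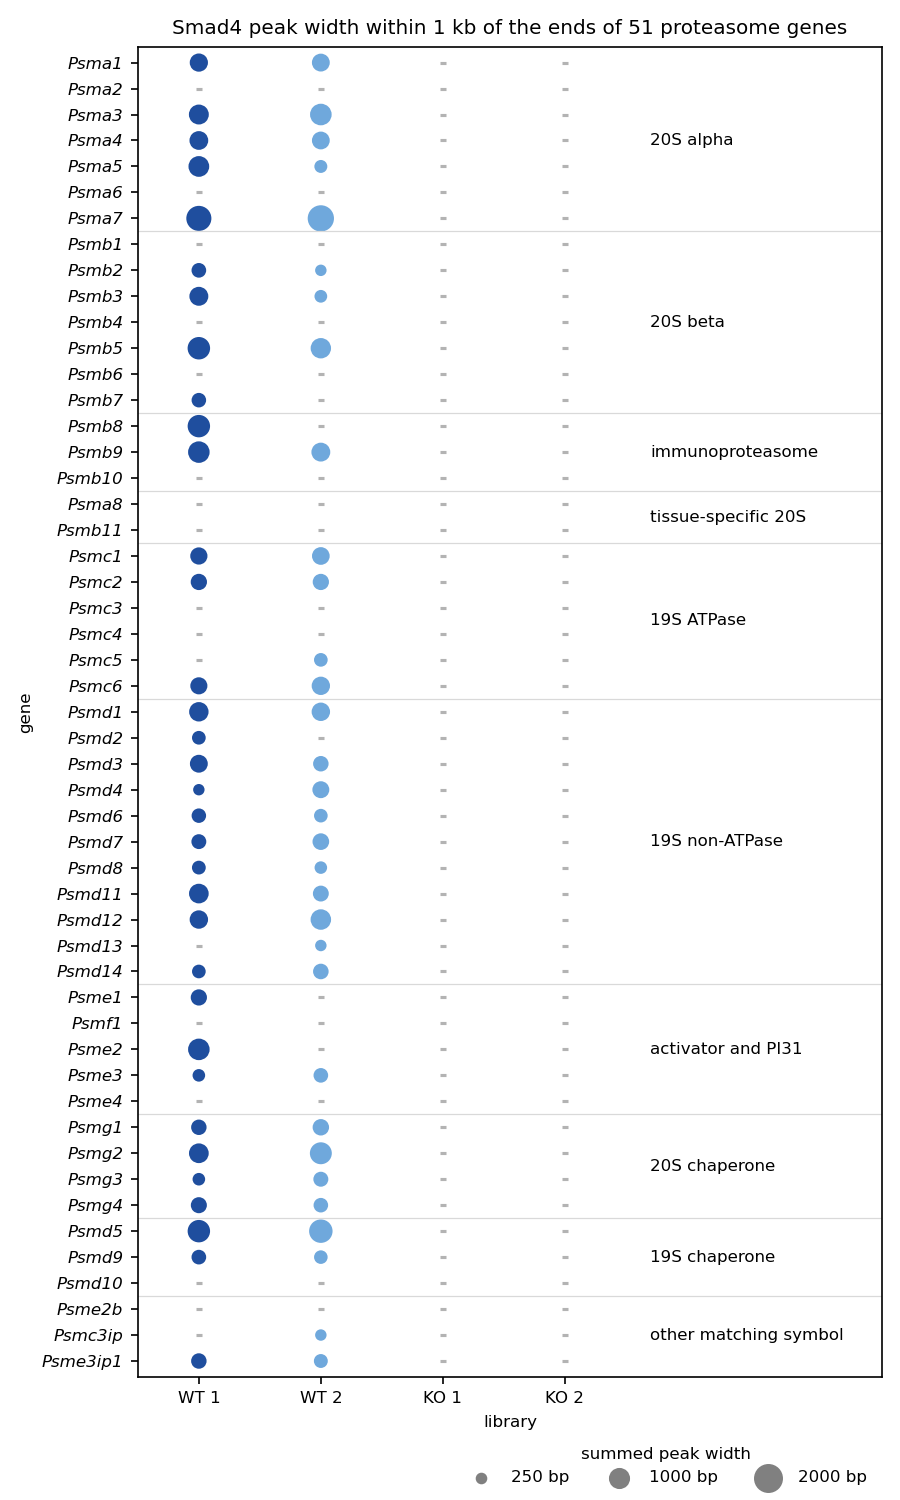
Summed width in bp (dot area) of the Smad4 peaks reaching within 1 kb of either end of each of the 51 genes, by library and grouped by role; a grey dash marks no peak. Dots fill both WT columns for most genes, with 34 genes in WT replicate 1 and 32 in WT replicate 2, and both KO columns are empty.

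A WT-only region lay at an end of 28 of the 51 proteasome genes (54.9%), and 29.4% of all coding genes had one. Weighting all coding genes to the gene lengths of the proteasome genes, in 10 length groups, gave 30.4%; the median length was 11567 bp for proteasome genes and 17219 bp for all coding genes. Regions shared by both WT lists, whether or not a KO peak met them, lay at the ends of the same 28 genes and of 29.8% of all coding genes. Over the gene body and 10 kb on both sides, called the territory here, 42 proteasome genes had a peak in WT replicate 1 and 40 in WT replicate 2, and 53.5% and 48.5% of all coding genes did. In the territory 37 proteasome genes (72.5%) held a WT-only region, with 44.3% of all coding genes and 44.9% after length weighting. The median number of WT-only regions per territory was 1 for proteasome genes and 0 for all coding genes. The ribosome, another large complex of basic cell upkeep, gave higher shares. Of 87 cytosolic ribosomal protein genes 61 (70.1%) held a WT-only region at an end, and of 78 mitochondrial ribosomal protein genes 49 (62.8%) did. These shares are descriptions, and no difference between gene groups was tested. Activity of the genes in these cells was not measured, so the gap to all coding genes is not shown to belong to the proteasome.

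**Figure D2:**
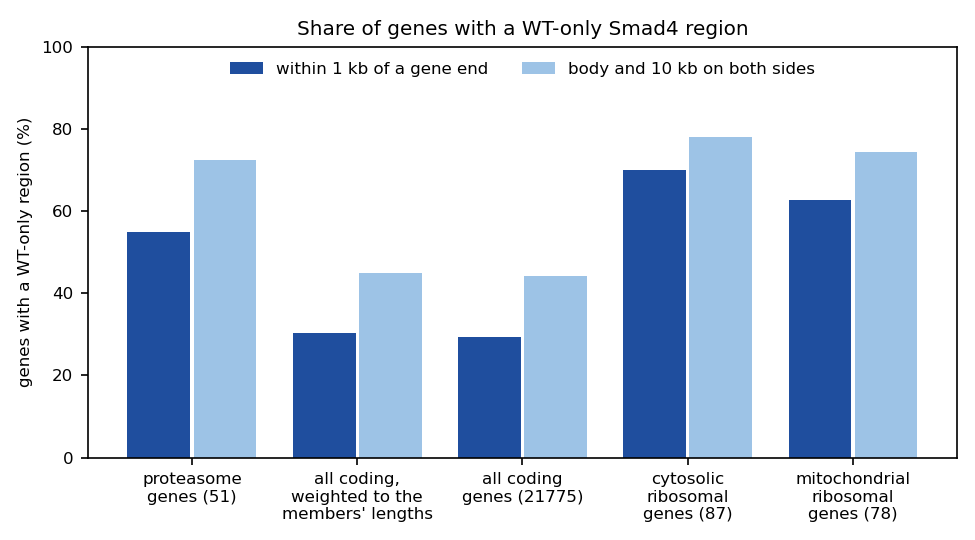
Percentage of genes with a WT-only Smad4 region within 1 kb of a gene end (dark bars) or in the body and 10 kb on both sides (light bars). Proteasome genes stood at 54.9% and 72.5%, all coding genes at 29.4% and 44.3%, and both ribosomal groups above the proteasome genes.

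The binding sat on the transcription start. The direction of transcription was known for 43 proteasome genes. Within 1 kb of the start end, 29 of them had a peak in WT replicate 1 and 28 in WT replicate 2, where 35.2% and 31.6% of 17491 coding genes with a known direction did, and 0 had one in KO replicates 1 and 2, where 0.377% and 0.131% did. At the other end 1 gene, Psma3, had a peak in WT replicate 1, where 4.59% of coding genes did. None had one there in WT replicate 2 (3.58% of coding genes), KO replicate 1 (0.0457%) or KO replicate 2 (0.0343%). Of the 43 genes, 24 had a WT-only region within 1 kb of the start end, where 28.3% of coding genes had one, and 0 had one at the other end, where 3.18% did. The other 4 of the 28 bound genes (Psmb2, Psmd3, Psmd7 and Psmg2) had no direction in the table used. The 25 regions at starts had their centre at a median of -38 bp from the start (negative values lie upstream), with quartiles of -105 and 85 bp. Of them 21 (84.0%) were centred within 250 bp of the start, and 65.0% of the 5099 start regions of all coding genes were. In the 5099, a region at the starts of several genes counts once for each gene. The peaks were narrower by median than those at the ends of all coding genes. Over the 30 distinct regions at ends the median peak was 547 bp in WT replicate 1 and 561 bp in WT replicate 2. The medians for the 5731 regions at coding gene ends were 672 and 592 bp.

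**Figure D3:**
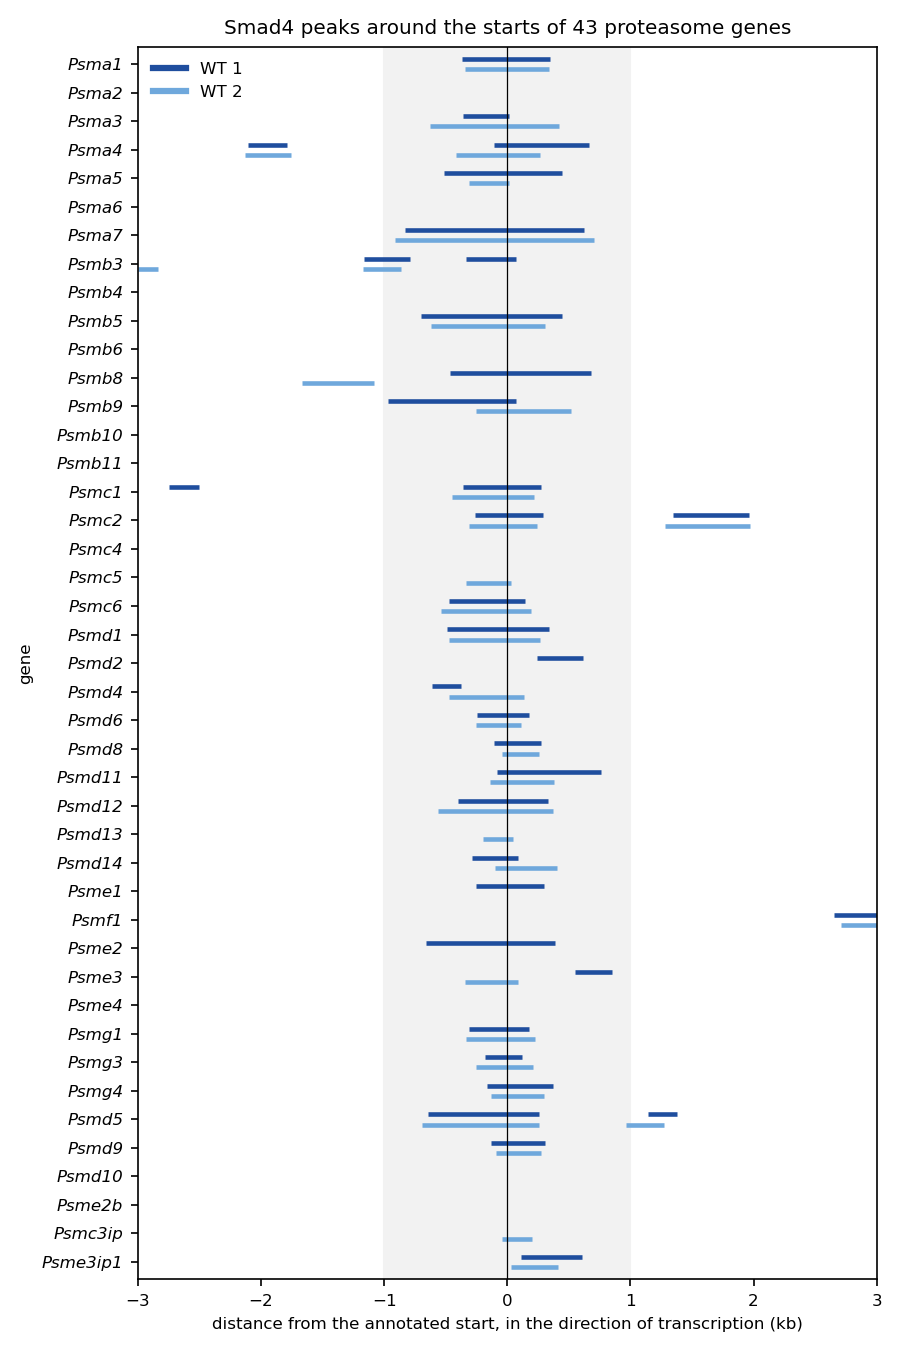
Position of each WT peak (bars; dark, WT replicate 1; light, WT replicate 2) from 3 kb before to 3 kb after the annotated start of the 43 proteasome genes with a known direction; the grey band marks 1 kb on each side. Starts are the outer gene ends. Most bars cross or touch the start; the Psmd2 peak lies inside it, over the start window that RefSeq lists, and at Psme3 and Psmb8 the libraries differ in position.

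Some of these regions also lay near an end of a neighbouring gene. Of the 30 distinct regions at proteasome gene ends, 10 (33.3%) also lay within 1 kb of an end of another coding gene, and 19.1% of the regions at all coding gene ends did. The pairs were Psma4 with Hykk and AY074887, Psma7 with Ss18l1, Psmb3 with Pcgf2, Psmb9 with Tap1, Psmc2 with Dnajc2, Psmd8 with Catsperg1, Psme3ip1 with Rspry1 and LOC115486880, Psmg1 with Brwd1, and Psmg2 with Cep76, which shared both Psmg2 regions. Such a region cannot be given to one gene of the pair.

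Among the α subunits, which form the outer rings and the gate of the core particle, 5 of 7 had a WT-only region at an end. Class counts here and below stand beside 29.4% of all coding genes at an end and 44.3% in the territory. The classes are small, and no difference between them was tested. Widths are given in the order WT replicate 1, WT replicate 2, and no gene had a KO peak at an end. Psma7 had the widest peaks of all proteasome genes, 1460 bp in WT replicate 1 and 1616 bp in WT replicate 2 (region on chromosome 2, 180041762 to 180043377). Psma4 had peaks of 768 and 682 bp (chromosome 9, 54950367 to 54951444), Psma1 of 718 and 688 bp (chromosome 7, 114275765 to 114276482), Psma3 of 380 and 1052 bp (chromosome 12, 70968653 to 70969704) and Psma5 of 960 and 326 bp (chromosome 3, 108256411 to 108257370). The replicates were close in width at Psma1 and Psma4 and far apart at Psma3 and Psma5. Psma3 held a further WT-only region inside the gene (70974436 to 70975287, with peaks of 762 and 812 bp). It met the only RefSeq start window used for Psma3, which lies inside the gene. Of the 300 bases of that window, 147 lay in a peak of WT replicate 1 and 237 in a peak of WT replicate 2.

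Psma6 had no peak at its outer ends, but its surroundings were the only ones called in both KO libraries. The region inside the gene at chromosome 12, 55389542 to 55390311, had WT peaks of 770 and 428 bp and KO peaks of 426 and 292 bp (replicates 1 and 2). All 4 libraries thus had a peak there, so it is not a WT-only region. Psma6 also held WT-only regions at 55392466 to 55393737 (1272 and 1004 bp) and at 55398401 to 55399095 (636 and 584 bp); the latter covers the whole window around an internal start that RefSeq lists. Psma2 had no peak at its ends; a WT replicate 1 peak of 574 bp in its territory lay at an end of AW209491. Counted by the RefSeq start windows in place of the outer ends, 25 of the 43 proteasome genes with windows held a WT-only region, and 28.1% of coding genes did; Psma6 and Psmf1 entered by this count and Psmb3 left it. Psmf1 encodes PI31, a proteasome regulator, and its region (chromosome 2, 151741050 to 151741548; 430 and 436 bp) lay 2.90 kb inside the outer start.

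The standard catalytic subunits differed among themselves. Psmb5, which carries the chymotrypsin-like site, had WT peaks of 1150 and 924 bp over its start (chromosome 14, 54617550 to 54618699). Psmb6, with the caspase-like site (chromosome 11, 70525324 to 70527858), had no peak in its territory in any library. Psmb7, with the trypsin-like site (chromosome 2, 38588046 to 38643952), had an end peak of 428 bp in WT replicate 1 alone and a WT-only region inside the gene (38610081 to 38610574; 494 and 316 bp).

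The immunoproteasome genes showed the same range of patterns. Psmb9, which replaces Psmb6, had WT peaks of 1044 and 778 bp; the region (chromosome 17, 34186810 to 34188302) spans the start it shares with Tap1, a peptide transporter gene of the class I pathway. Psmb8, which replaces Psmb5 and lies on the far side of Tap1, had a peak of 1142 bp over its start in WT replicate 1 (34197732 to 34198873) and none there in WT replicate 2, whose nearest peak, 588 bp at 34196527 to 34197114, lay 1.08 kb away at the end of Tap1. Its territory held 3 WT-only regions all the same, the Psmb9 and Tap1 region, the region at an end of Tap2 (34203344 to 34205480; 2052 and 1540 bp) and one at 34210412 to 34211099 (688 and 388 bp). Psmb10, which replaces Psmb7 and lies apart on chromosome 8 (105935728 to 105938392), had no peak in its territory in any library. With 1 of 3 genes bound at an end in both WT libraries, the immunoproteasome genes gave no count that could be set apart from the other proteasome genes.

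**Figure D4:**
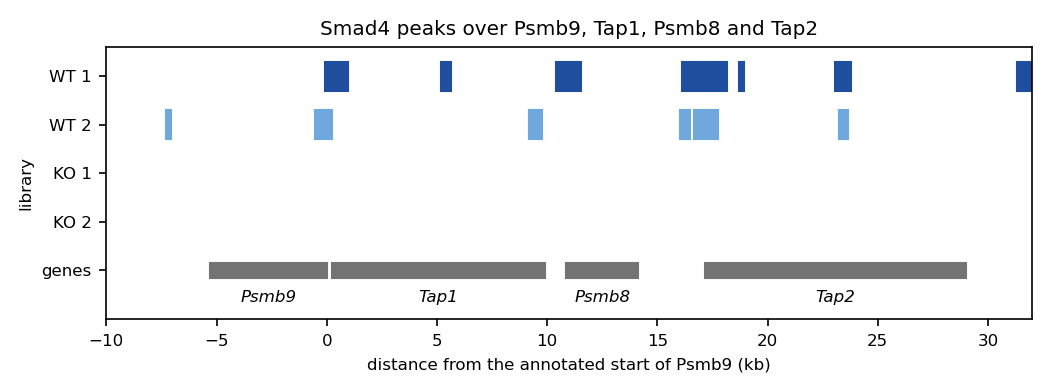
Smad4 peaks of the 4 libraries (bars) over Psmb9, Tap1, Psmb8 and Tap2, in kb from the annotated start of Psmb9. Both WT libraries have peaks at the start shared by Psmb9 and Tap1 and at the left end of Tap2, WT replicate 1 alone has the 1142 bp peak at Psmb8, and neither KO library has a peak.

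The start windows of these catalytic genes are shown because they span the contrast between bound, singly called and unbound starts within one functional set, together with Psma7 as the widest and the internal Psma6 start. Each runs from 250 bases before to 50 after a RefSeq start (GRCm38.p6), 5′ to 3′ on the strand of the gene, and capitals mark every match to the 7 motifs named after the sequences. The windows of Psmb5 (chr14:54617946-54618245, minus strand), Psmb9 (chr17:34187281-34187580, minus strand), Psma7 (chr2:180042415-180042714, minus strand) and the internal Psma6 start (chr12:55398575-55398874, plus strand) lie entirely inside a peak of each WT list. The window of Psmb8 (chr17:34197945-34198244, plus strand) lies inside a peak of WT replicate 1 alone, and those of Psmb6 (chr11:70525107-70525406, plus strand) and Psmb10 (chr8:105938343-105938642, minus strand) meet none.
Psmb5: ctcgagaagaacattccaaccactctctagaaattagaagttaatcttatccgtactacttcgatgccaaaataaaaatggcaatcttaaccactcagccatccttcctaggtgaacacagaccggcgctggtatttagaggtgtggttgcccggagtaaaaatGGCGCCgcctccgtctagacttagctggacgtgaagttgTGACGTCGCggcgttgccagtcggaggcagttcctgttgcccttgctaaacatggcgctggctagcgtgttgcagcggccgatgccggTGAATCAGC
Psmb9: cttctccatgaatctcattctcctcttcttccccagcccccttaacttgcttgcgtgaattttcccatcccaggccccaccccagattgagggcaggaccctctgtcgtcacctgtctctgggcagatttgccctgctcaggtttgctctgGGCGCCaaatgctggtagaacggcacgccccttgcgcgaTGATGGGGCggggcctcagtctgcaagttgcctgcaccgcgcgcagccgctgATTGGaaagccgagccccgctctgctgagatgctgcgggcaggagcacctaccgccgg
Psma7: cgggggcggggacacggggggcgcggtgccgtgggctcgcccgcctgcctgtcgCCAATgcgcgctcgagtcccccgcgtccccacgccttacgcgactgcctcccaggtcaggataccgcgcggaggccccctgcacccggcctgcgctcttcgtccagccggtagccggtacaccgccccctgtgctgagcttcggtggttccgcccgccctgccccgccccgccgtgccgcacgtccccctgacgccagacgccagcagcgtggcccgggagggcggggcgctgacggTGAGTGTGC
Psma6: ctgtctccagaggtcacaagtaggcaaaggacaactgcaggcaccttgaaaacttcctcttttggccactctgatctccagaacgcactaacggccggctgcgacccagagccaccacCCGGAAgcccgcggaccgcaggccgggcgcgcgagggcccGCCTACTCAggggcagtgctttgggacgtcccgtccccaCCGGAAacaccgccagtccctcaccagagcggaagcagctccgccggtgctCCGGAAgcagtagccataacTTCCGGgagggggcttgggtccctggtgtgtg
Psmb8: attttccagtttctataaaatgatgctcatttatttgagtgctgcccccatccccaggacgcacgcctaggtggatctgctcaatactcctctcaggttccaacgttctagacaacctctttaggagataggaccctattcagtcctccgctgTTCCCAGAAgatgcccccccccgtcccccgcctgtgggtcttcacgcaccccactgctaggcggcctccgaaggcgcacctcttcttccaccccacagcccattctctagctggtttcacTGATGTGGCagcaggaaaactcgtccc
Psmb6: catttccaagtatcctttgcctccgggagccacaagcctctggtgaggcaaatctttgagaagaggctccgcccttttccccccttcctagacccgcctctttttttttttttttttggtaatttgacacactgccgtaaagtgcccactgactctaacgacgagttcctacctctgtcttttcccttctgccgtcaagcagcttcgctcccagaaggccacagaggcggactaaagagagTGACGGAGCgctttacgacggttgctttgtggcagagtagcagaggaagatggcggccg
Psmb10: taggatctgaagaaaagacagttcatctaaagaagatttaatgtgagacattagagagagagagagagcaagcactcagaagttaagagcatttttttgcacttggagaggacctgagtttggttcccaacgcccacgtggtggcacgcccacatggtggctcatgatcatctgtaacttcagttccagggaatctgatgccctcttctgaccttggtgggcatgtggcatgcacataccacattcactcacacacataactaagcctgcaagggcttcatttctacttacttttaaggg

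The motifs, searched on both strands, were CAGACA and GGCGCC (bound by SMAD proteins), CCAAT (NF-Y), TGANNNNGC (the core of the element bound by the Nfe2l1 and Nfe2l2 proteins), CCGGAA (ETS factors), TTCNNNGAA (STAT factors) and TGANTCA (AP-1). TGANNNNGC and TGANTCA overlap where they share their first bases, as in the last capitals of Psmb5. The proteasome genes had 47 windows from 43 genes. CCGGAA was in 23 of them (48.9%) and in 18.7% of the 21262 windows of all coding genes. Among windows on a WT-only region it was in 14 of 26 proteasome windows (53.8%) and in 35.6% of those of all coding genes, and it was in 9 of the 21 other proteasome windows (42.9%, against 12.5% for all coding genes). The internal Psma6 start, printed above, holds 4 matches. TGANNNNGC was in 27 windows (57.4%) and in 41.7% of all. It was in 16 of the 26 windows on a WT-only region (61.5%, against 43.1% for all coding genes) and in 11 of the 21 others (52.4%, against 41.2%). Neither SMAD motif was in a larger share of proteasome windows than of all windows. CAGACA was in 8 proteasome windows (17.0%, against 18.9% of all) and GGCGCC in 6 (12.8%, against 15.3%), among them Psmb5 and Psmb9. On WT-only regions CAGACA was in 6 of the 26 proteasome windows (23.1%, against 15.6% for all coding genes) and GGCGCC in 5 (19.2%, against 25.8%). CCAAT was in 16 (34.0%, against 38.2%), TTCNNNGAA in 3 (6.38%, against 7.69%) and TGANTCA in 2 (4.26%, against 6.99%). A match is a description of letters, not a binding site, and the part of base composition in these shares was not tested. The windows of proteasome genes had a median G+C content of 59.2% and 20.5 CpG pairs where they lay on a WT-only region, and 56.7% and 15 where they did not. The corresponding medians for all coding genes were 63.7% and 25, and 53.3% and 7.

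Of the remaining β subunits, Psmb2 and Psmb3, structural members of the inner rings, had a WT-only region at an end. Psmb2 had WT peaks of 436 and 242 bp (chromosome 4, 126677372 to 126677807), the second at the smallest width in the list of WT replicate 2. The Psmb3 region (chromosome 11, 97702264 to 97702646; 376 and 312 bp) was centred at -0.979 kb from the start, and a second peak, of 408 bp, over the start itself was called in WT replicate 1 alone. Psmb1 had no end peak, and its WT-only region (chromosome 17, 15499618 to 15500122; 498 and 460 bp) lay 1.34 kb from the gene at an end of Tbp, the gene of the TATA-binding protein. Psmb4 had no peak in its territory in any library. In all, 3 of the 7 standard β genes were bound at an end in both WT libraries.

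The tissue-specific core subunits had no peak at an end. Psma8, used in male germ cells, had none in its territory. Psmb11, the β subunit of thymic cortical epithelium, is the neighbour of Psmb5 and had WT-only regions in its territory, one being that at the start of Psmb5, 6.61 kb away, and one of 476 and 456 bp lying 7.34 kb away on its other side.

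In the regulatory particle, 3 of 6 ATPase genes, whose products unfold the substrate, had a WT-only region at an end. Psmc1 had WT peaks of 632 and 672 bp (chromosome 12, 100109752 to 100110472), Psmc2 of 556 and 554 bp (chromosome 5, 21784962 to 21785567) and Psmc6 of 622 and 730 bp (chromosome 14, 45329287 to 45330016), with similar widths in both replicates. Psmc2 had another WT-only region (21786557 to 21787246; 612 and 690 bp) over its second RefSeq start. Psmc3 and Psmc4 had no peak in their territory in any library. Psmc5 had a 370 bp peak at its start, near an end of Ftsj3, in WT replicate 2 alone, and it is the other proteasome gene with a KO peak in its territory. That peak, of 254 bp in KO replicate 1, lay in a region 9.40 kb from Psmc5 at ends of Smarcd2 and Tcam1 (chromosome 11, 106272515 to 106273090; WT peaks of 576 and 302 bp). With Psma6 and Psmc5, 2 of the 51 territories had a peak in KO replicate 1, where 1.87% of all coding genes had one, and 1 had a peak in KO replicate 2, where 1.16% did.

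Of the non-ATPase genes of the regulatory particle, 9 of 11 had a WT-only region at an end, and all 11 had one in the territory. Of all coding genes 29.4% and 44.3% did. This was the highest share among the classes of 5 or more genes. The smaller class of core particle chaperones had one at an end in all 4. Psmd12 had WT peaks of 736 and 936 bp (chromosome 11, 107478964 to 107479899) and Psmd1, the gene of a large scaffold subunit, of 830 and 738 bp (chromosome 1, 86064133 to 86064962). Psmd14, which encodes the deubiquitinase that releases the ubiquitin chain, had peaks of 370 and 502 bp (chromosome 2, 61711409 to 61712094). Psmd4, which encodes a ubiquitin receptor, had 240 and 608 bp (chromosome 3, 95042480 to 95043227), the first at the smallest width in the list of WT replicate 1. The others were Psmd3, Psmd6, Psmd7, Psmd8 and Psmd11, with peaks between 302 and 852 bp. Psmd2, the other large scaffold gene, had an end peak of 372 bp in WT replicate 1 alone, centred 429 bp inside the outer gene end and covering the whole RefSeq start window, and Psmd13 one of 242 bp, near an end of Sirt3, in WT replicate 2 alone. Their WT-only regions lay elsewhere in the territory, that of Psmd2 at an end of Eif4g1.

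All 4 genes of the chaperones that assemble the core particle had a WT-only region at an end. Psmg1 had WT peaks of 492 and 568 bp, Psmg3 of 304 and 458 bp and Psmg4 of 538 and 430 bp. Psmg2 had peaks of 620 and 776 bp at its end shared with Cep76 (chromosome 18, 67641029 to 67641804) and a second pair of 240 and 312 bp close by. Of the chaperones of the regulatory particle, Psmd5 had wide peaks of 904 and 952 bp at its start (chromosome 2, 34870706 to 34871659) and a smaller WT-only region of 240 and 308 bp inside the gene, and Psmd9 had peaks of 436 and 364 bp. Psmd10, on chromosome X (140948425 to 140956711), had no peak in its territory in any library.

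At the proteasome activator genes the WT libraries differed. Psme1 and Psme2 encode the subunits of PA28, the interferon-induced activator that caps the core particle, and lie close together on chromosome 14. Psme2 had a peak of 1046 bp over its start in WT replicate 1 (55590712 to 55591757), which also meets an end of Rnf31, and Psme1 one of 552 bp (55578238 to 55578789); WT replicate 2 had no peak in the territory of either. Psme3, the gene of the nuclear activator PA28γ, had 434 bp over its start in WT replicate 2 and 304 bp further inside in WT replicate 1, which did not meet. Psme4, the gene of the activator PA200, had a single 242 bp peak inside the gene in WT replicate 2. No activator gene had a WT-only region at an end or in its territory, and among the 5 genes of this class only Psmf1 had one in its territory.

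In all, 8 of the 51 genes (15.7%) had an end peak in a single WT list, and 9.46% of all coding genes did. They were Psmb7, Psmb8, Psmd2, Psme1 and Psme2 in WT replicate 1 and Psmc3ip, Psmc5 and Psmd13 in WT replicate 2. Proteasome genes also had end peaks more often in each WT list (66.7% against 36.7% in WT replicate 1, 62.7% against 32.7% in WT replicate 2). The shares with a single call therefore do not compare how far the WT lists disagreed. WT replicate 1 had more peaks in all than WT replicate 2, whose part in these gaps was not tested. The 5 peaks of WT replicate 1 differed in width. Of the 1883 regions at coding gene ends called in WT replicate 1 alone, 11 (0.584%) were as wide as Psmb8 or wider and 15 (0.797%) as wide as Psme2 or wider, while the median was 306 bp; for Psme1, Psmb7 and Psmd2 the share was 11.6%, 24.6% and 35.3%. This count was made after the values were seen. A further 8 genes had no WT peak in the territory, which is 15.7%, against 44.2% of all coding genes: Psma8, Psmb4, Psmb6, Psmb10, Psmc3, Psmc4, Psmd10 and Psme2b.

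Of the 3 genes that match by symbol but encode no standard subunit, regulator or chaperone, Psme3ip1, whose product binds PA28γ, had WT peaks of 494 and 386 bp (chromosome 8, 94601359 to 94601935). Psmc3ip, a meiotic recombination gene, had an end peak of 242 bp in WT replicate 2 alone, and Psme2b, a relative of Psme2, had none. Without these 3 genes, 27 of 48 (56.2%) had a WT-only region at an end. The 28 bound genes had a median length of 13294 bp and the other 23 of 7325 bp.

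Genes that work with the proteasome also held WT-only regions. Of 15 partners outside the Psm symbols, 9 (60.0%) had a WT-only region at an end, and 29.4% of all coding genes had one. The widest lay at Zfand5, a ubiquitin-binding protein gene (1486 and 1816 bp in WT replicates 1 and 2), Rad23b, which encodes a shuttle for ubiquitinated proteins (1394 and 1202 bp), the ubiquitin ligase gene Ube3c (956 and 864 bp) and the shuttle gene Ubqln1 (948 and 872 bp). Of 9 genes that regulate proteasome transcription, 6 had a WT-only region at an end and 9 in the territory, against 29.4% and 44.3% of all coding genes. Nfe2l2 had the widest peaks, 2152 and 1378 bp, followed by Maff, a small partner of these factors (1510 and 1192 bp), Keap1, which targets the Nfe2l2 protein for degradation (808 and 764 bp), and Nfe2l1 (838 and 688 bp). WT-only regions also lay at an end of Ubb, which encodes a chain of ubiquitin units (2156 and 1172 bp), and of Rps27a, which encodes ubiquitin fused to a ribosomal protein (908 and 944 bp). Of 11 class I presentation genes 9 had a WT-only region at an end, where 29.4% of all coding genes had one. That of Tap1 is the region it shares with Psmb9, already counted there. The widest lay at Tap2, the transporter partner of Tap1 (2052 and 1540 bp), and Tapbp, which loads peptide on class I (1948 and 1162 bp). Calr and Erap1 had no WT-only region at an end. None of the genes named here as partners, regulators or class I presentation genes had a KO peak in its territory. That is close to the background, since only 1.87% of all coding genes had one in KO replicate 1 and 1.16% in KO replicate 2.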

How the data were processed

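Peaks of Smad4 ChIP-seq were analysed for 2 WT and 2 KO samples; the input samples were not used here. The authors deposited 1 list of peak positions per sample (chromosome, start, end), not pooled and without scores. Per the submitters' processing notes, HOMER 4.8.3, Bowtie, Trim Galore and build mm10 were used, in roles not stated. Thresholds, input use and read depth were not given in the sources used here. A list without scores keeps a weak and a strong peak alike, so peak number follows depth and threshold.

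RefSeq gave 21896 protein-coding genes, of which 21775 were used; genes starting below 3 Mb (except on Y) were left out, because scaffold positions stand there under chromosome names. Direction and start windows came from the RefSeq promoter table. Peaks meeting by 1 bp were merged with Python 3.11.15, numpy 2.4.6 and pandas 2.3.3; figures used matplotlib 3.10.9. The overlap code was tested on simulated data. Values per library were compared by an exact permutation test. Gene lists were described by counts, beside all coding genes, with no list test. Members, lists and alternatives were chosen with earlier results of these data known. The genes described in full were the catalytic and tissue-specific genes, the 10 with the widest end regions, those with a KO peak and those without a WT peak; others were named by class, partly after their values were seen. Alternatives were other windows and overlaps, wider peaks, nearest genes, left-out libraries and a block by replicate number. Some genes of the pathway lists are not reported here.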

Additional observations from a re-analysis of the deposited data

How the results depend on the processing

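With only the wider part of each list (peaks at or above its median width), the proteasome genes with a WT-only region at an end fell to 16 and those with one in the territory to 24, while all coding genes fell to 19.2% and 29.9%; fewer peaks enter this count by its construction. Leaving out 1 library in turn gave 28 to 34 genes at an end and 37 to 41 in the territory; without WT replicates 1 and 2 the shares of all coding genes rose to 32.3% and 36.3% at an end and to 48.2% and 53.2% in the territory, since without a WT list a region rests on a single list. The WT minus KO difference then ran from 32 to 34 genes with an end peak, from 60.5 to 71.5 peaks in territories and from 19040 to 22687 covered bp. The other planned settings (stricter overlap, no KO peak within 1 kb, other windows, nearest gene, region centre, without the 3 other symbols) gave 21 to 30 genes at an end and 29 to 41 in the territory. All coding genes, where computed, ran from 20.8% to 31.8% at an end and from 37.1% to 50.6% in the territory. Their shares were not computed for the nearest-gene setting, which gave 24 proteasome genes at an end and 29 in the territory. All differences between WT and KO kept their direction in every setting run, which the small number of KO peaks all but fixed in advance. The start windows of RefSeq, chosen after seeing the data, gave 25. With a replicate block by label number, the differences were 33 genes, 66 peaks and 20864 bp, each with exact p = 0.5, the smallest for 2 pairs. Same-numbered samples shared no stated source, and the correlation of their deviations across 21775 genes, which are not independent, was 0.0235. Depth is unknown, so a missing peak cannot be read as missing binding.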
